A study of Mus musculus with 6 samples.

Results

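The gene Trp53, which encodes the tumour suppressor p53, was followed in whole embryonic mouse hearts together with 9 genes that p53 is known to activate directly: Cdkn1a, Mdm2, Ccng1, Bax, Bbc3, Phlda3, Eda2r, Trp53inp1 and Zmat3. The 10 genes were taken as a list by symbol and not by a cut on their values, although earlier results of these data were known. Each has a row among the 45792 genes of the count table, and all 10 were among the 17125 genes with enough counts to be tested. The comparison asks whether loss of a chromatin remodeller is accompanied by a DNA damage response that can be seen in whole hearts.

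The study removed Ino80, the ATPase of the INO80 remodelling complex, from endothelial cells and sequenced mRNA of individual hearts at embryonic day 13.5. The 3 control-labelled hearts are given as wild-type and the 3 mutant-labelled hearts as Tie2Cre;Ino80 fl/fl, and both groups as strain C57BL/6, although the methods speak of mixed backgrounds and of controls of any genotype other than the mutant. Tie2Cre expresses its recombinase in endothelial cells and their descendants, and blood cells are also known to be labelled by it, so most cells of a mutant heart, cardiomyocytes among them, keep Ino80. Ino80 itself was measured at 30.2, 31.6 and 32.7 counts per M (CPM, scaled by TMM for library composition) in control replicates 1 to 3 and at 36.5, 33.7 and 31.8 CPM in mutant replicates 1 to 3, a log2 fold change of 0.11 ± 0.08 (SE) with an adjusted p of 0.473 in edgeR. These ranges overlap, so the Ino80 count did not separate the labels, and a whole-gene count in whole hearts checks little when the deletion is limited to 1 lineage. In the conditional allele, moreover, loxP sites flank a single exon, whereas the count covers the whole gene. By quantitative PCR, the paper found no detectable Ino80 mRNA in endothelial cells sorted from mutant hearts.

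The p53 protein is held low in unstressed cells, mainly because MDM2 binds it and marks it for destruction. After DNA damage, kinases of the ATM and ATR pathways block this, and p53 then accumulates and switches on genes that stop the cell cycle, such as Cdkn1a, genes of the mitochondrial death pathway, such as Bax and Bbc3, and its own inhibitor Mdm2. Because p53 is regulated as a protein, its activity is commonly read from its targets and not from its own mRNA. In the embryonic heart, as in other growing tissues, excess p53 is known to stop proliferation or kill cells.

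The targets carry p53 binding sites, some of them close to where transcription starts. RefSeq windows from 250 bases before to 50 bases after a start were searched for the p53 response element decamer, a consensus of 10 bases that reads the same on both strands and of which a full element holds a pair. Positions were counted from the start site, with the base before it at -1. Of the 10 genes, 8 had a window in the table, and 5 of these genes held the decamer (62.5%), against 10 of 32 genes (31.25%) in a list of other p53 targets and 9.55% of all 27025 genes with a window. These 5 were Trp53, at -75, Cdkn1a, at -73 and -51 from its upstream start, Mdm2, at -186, Ccng1, at -185, and Bax, at -201. The 12 bases between the Cdkn1a decamers lie within the 13 bases allowed between the parts of a full element, and 0.0731% of all 32851 windows hold such a pair. The search allowed no mismatch. It thus did not count the bases tgacatgttc, which directly follow the second Cdkn1a decamer and depart from the consensus only at their first base. No decamer was found in a second Cdkn1a window, in the 3 windows of Bbc3, or in those of Phlda3 and Eda2r. A match is a description of the letters and not a measured binding site.

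A set of 5 windows of 300 bases are printed, all in GRCm38.p6 coordinates and in the sense of the gene, because these genes cover the lower, the level and the decamer-free members described further on. They are Cdkn1a at chr17:29090729-29091028 on the plus strand, Ccng1 at chr11:40755237-40755536, Mdm2 at chr10:117710709-117711008, Bax at chr7:45466849-45467148 and Eda2r at chrX:97377160-97377459, the last 4 on the minus strand. Capitals mark the decamers, and the Eda2r window has none.
Cdkn1a: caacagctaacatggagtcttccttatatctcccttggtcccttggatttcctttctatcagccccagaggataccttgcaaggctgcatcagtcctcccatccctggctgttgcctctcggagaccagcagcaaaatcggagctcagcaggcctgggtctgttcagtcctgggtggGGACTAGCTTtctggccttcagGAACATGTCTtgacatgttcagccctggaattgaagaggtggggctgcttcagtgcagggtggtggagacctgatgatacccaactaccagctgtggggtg
Ccng1: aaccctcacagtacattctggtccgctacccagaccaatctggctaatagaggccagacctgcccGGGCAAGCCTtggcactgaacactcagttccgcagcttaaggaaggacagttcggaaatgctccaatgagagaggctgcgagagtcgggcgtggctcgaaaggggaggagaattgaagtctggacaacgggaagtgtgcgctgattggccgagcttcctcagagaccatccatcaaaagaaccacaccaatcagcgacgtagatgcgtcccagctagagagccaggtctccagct
Mdm2: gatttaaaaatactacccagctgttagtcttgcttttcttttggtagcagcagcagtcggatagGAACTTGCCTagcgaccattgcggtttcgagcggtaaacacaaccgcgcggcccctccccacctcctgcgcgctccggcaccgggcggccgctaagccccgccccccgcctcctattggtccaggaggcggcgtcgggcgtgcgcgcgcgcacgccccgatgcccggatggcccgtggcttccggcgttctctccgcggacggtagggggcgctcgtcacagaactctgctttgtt
Bax: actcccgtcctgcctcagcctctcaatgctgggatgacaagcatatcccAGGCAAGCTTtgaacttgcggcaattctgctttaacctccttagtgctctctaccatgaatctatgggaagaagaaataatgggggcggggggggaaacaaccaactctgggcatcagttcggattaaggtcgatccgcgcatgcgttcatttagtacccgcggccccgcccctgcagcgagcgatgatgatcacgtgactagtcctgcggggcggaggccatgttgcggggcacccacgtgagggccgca
Eda2r: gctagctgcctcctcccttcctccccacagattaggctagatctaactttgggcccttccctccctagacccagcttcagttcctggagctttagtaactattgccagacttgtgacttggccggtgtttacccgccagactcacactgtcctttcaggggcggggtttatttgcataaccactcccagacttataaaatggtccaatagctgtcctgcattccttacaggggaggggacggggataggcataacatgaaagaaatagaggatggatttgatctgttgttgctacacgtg

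In GRCm38 the members lie on 8 chromosomes. Trp53 (ENSMUSG00000059552.11) is at chr11:69580359-69591873, Cdkn1a (ENSMUSG00000023067.11) at chr17:29090976-29100727, Mdm2 (ENSMUSG00000020184.12) at chr10:117688875-117710758, Ccng1 (ENSMUSG00000020326.7) at chr11:40748552-40755311 and Bax (ENSMUSG00000003873.10) at chr7:45461697-45466898. Bbc3 (ENSMUSG00000002083.10) is at chr7:16308393-16318205, Phlda3 (ENSMUSG00000041801.5) at chr1:135766119-135769136, Eda2r (ENSMUSG00000034457.8) at chrX:97333840-97377216, Trp53inp1 (ENSMUSG00000028211.9) at chr4:11156431-11174379 and Zmat3 (ENSMUSG00000027663.10) at chr3:32334792-32366014. All are protein-coding, and 8 share no exonic base with another gene. In Cdkn1a, 273 exonic bases (7.68%) overlap the opposite-strand model AC167363.2, and in Bax 192 (12.2%) overlap Gm45808 on the same strand, so the counts of these 2 genes are less certain.

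Depth was ample for every member. The hearts held 28948836 to 89675692 counts, of which 14347 to 44863 fell on the 10 genes, and the smallest member count was 168. The spread between hearts, with a common biological coefficient of variation of 0.153, set the precision more than counting did. With 3 hearts per group that come from separate embryos, a p-value measures the difference against the spread between these hearts.

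Compared as levels per length (CPM per kb of exon), Ccng1 was by far the most abundant member, at 79.1 ± 5.25 CPM per kb (SD, n = 3) in control hearts. Bax followed at 22.7 ± 2.56, Phlda3 at 22.05 ± 6.24 and Trp53 at 15.5 ± 1.29 CPM per kb. Mdm2, at 10.5 ± 0.52, and Cdkn1a, at 9.86 ± 2.28 CPM per kb, came next. Trp53inp1 at 5.72, Zmat3 at 4.04, Bbc3 at 3.21 and Eda2r at 2.01 CPM per kb closed the order, which was the same in mutant hearts. Among neighbours in this order, the control values separated Ccng1 from Bax, Trp53 from Mdm2 and Cdkn1a from Trp53inp1, and the other neighbours overlapped.

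No member was called between genotypes by edgeR's quasi-likelihood test at an adjusted p under 0.05, and neither was any other gene (0% of those tested). The smallest adjusted p over all genes in that test was 0.0533. At an adjusted p under 0.1, the same fit called 195 genes higher and 214 lower, with Ccng1 as the only member. The targets were more often lower than higher in mutant hearts. All 9 were present in every heart, 7 had a lower and 2 a higher mean in mutant hearts, and the median log2 fold change of the 9 was -0.06 against -0.0017 for all tested genes. At an unadjusted p under 0.05, Cdkn1a, Ccng1 and Eda2r were lower and Trp53 was higher. That is 3 of 10 genes lower and 1 of 10 higher, where 9.98% of all tested genes were lower and 9.48% higher by the same measure. The groups did not overlap for Cdkn1a and Ccng1, both lower in every mutant heart, nor for Trp53, higher in every mutant heart. The background of such separation was 12.8% of tested genes for lower and 14.3% for higher.

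With DESeq2, the tool the study used, an adjusted p under 0.05 was reached by 3 members with lower values, Cdkn1a, Ccng1 and Eda2r, and by none with higher values. Among the 16614 genes with an adjusted p in that fit, 3.43% were called lower and 2.67% higher. That fit took in genes that filterByExpr removes before the edgeR test. On the genes kept by filterByExpr, a setting added after the data were seen, DESeq2 gave adjusted p-values of 0.00338 for Cdkn1a, 4.44e-07 for Ccng1 and 0.0228 for Eda2r, and called 3.55% of genes lower. In edgeR, Cdkn1a and Ccng1 passed when genes of low count were kept as well, with the values given beside each gene. The calls of Cdkn1a and Ccng1 in edgeR thus depended on the filter, and Eda2r passed in the DESeq2 fits but in none of the edgeR fits.

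**Figure D1:**
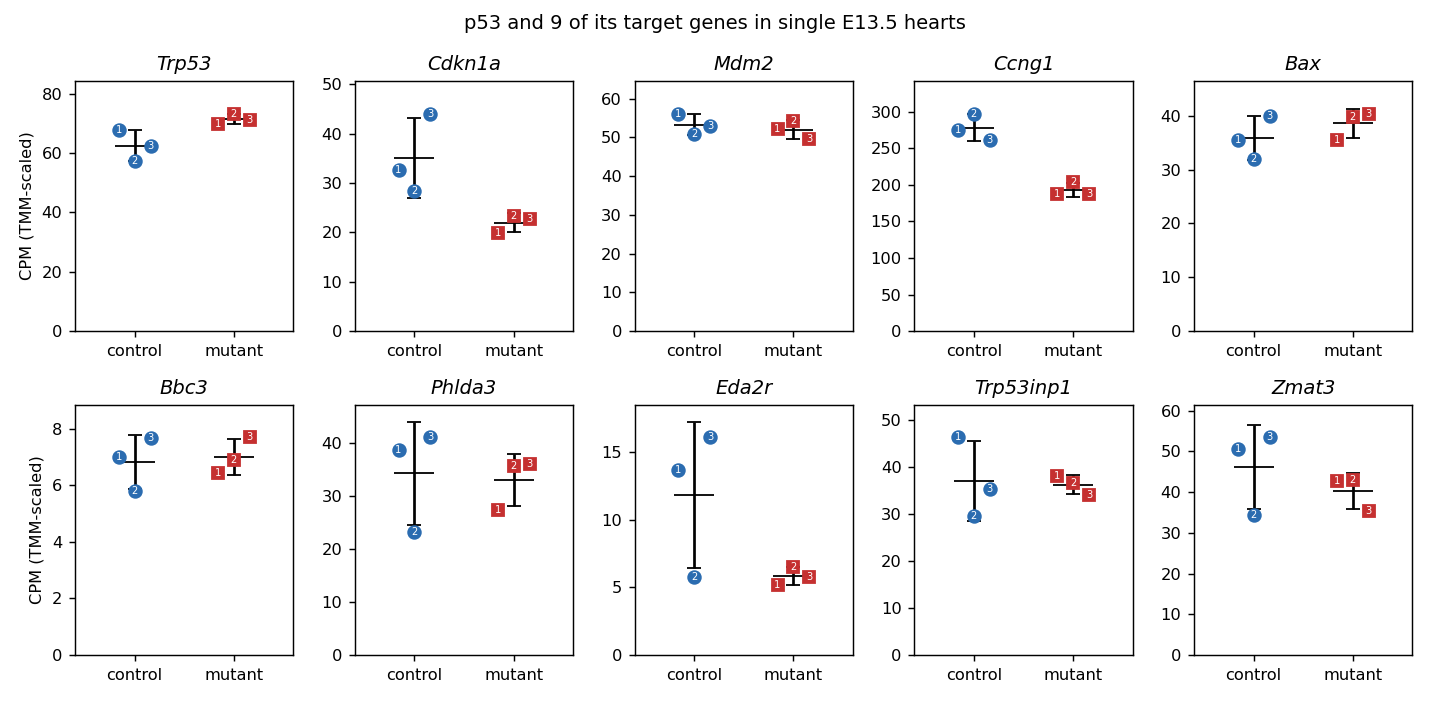
Expression of the 10 members in each heart, as TMM-scaled CPM on axes that start at 0. Circles are control and squares mutant hearts, numbered by replicate, and the bars give the mean ± SD (n = 3). Mutant hearts lie below all control hearts for Cdkn1a and Ccng1 and above them for Trp53, and control replicate 2 sits with the mutant hearts for Eda2r.

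The p53 gene and its main inhibitor differed little between the groups. Trp53 was at 67.8, 57.3 and 62.4 CPM in control hearts 1 to 3 and at 69.9, 73.3 and 71.1 CPM in mutant hearts. Every mutant heart was above every control heart, though mutant replicate 1 exceeded control replicate 1 only slightly. The log2 fold change was 0.19 ± 0.08 (SE), with a 95% confidence interval from 0.01 to 0.37 and an adjusted p of 0.231. Mdm2 is one of the most used readouts of p53 activity, and its count covers the whole gene without telling start sites apart. It was at 56.1, 50.8 and 52.97 CPM in control and 52.1, 54.3 and 49.6 CPM in mutant hearts. These values are interleaved and vary little, with a coefficient of variation of 4.99% in control and 4.48% in mutant hearts. Its log2 fold change was -0.04 ± 0.07, and the interval from -0.20 to 0.13 makes Mdm2 one of the most tightly measured members.

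Cdkn1a and Ccng1, which act on the cell cycle and on MDM2, had lower values in every mutant heart. In edgeR they did not pass on the filterByExpr genes of all 6 hearts. Cdkn1a encodes p21, which inhibits cyclin-dependent kinases and is the classical arrest gene downstream of p53. It was at 32.7, 28.3 and 44.0 CPM in control and 19.8, 23.4 and 22.7 CPM in mutant hearts. The highest mutant heart was below the lowest control heart, and the control hearts differed among themselves by up to 1.56-fold. The mutant level was 0.627 of the control level, a log2 fold change of -0.67 ± 0.16 with an interval from -1.04 to -0.31. The adjusted p was 0.1002 in edgeR and 0.00269 in DESeq2. Leaving out control replicate 3, its highest heart, moved the change to -0.48 (adjusted p = 0.207 in edgeR).

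Ccng1 encodes cyclin G1, which brings a phosphatase to MDM2 and is counted among the most regular p53 targets. It was at 276, 297 and 261 CPM in control and 188, 204 and 188 CPM in mutant hearts. The groups lie far apart compared with the spread inside them, which was 6.64% in control and 4.71% in mutant hearts. The mutant level was 0.695 of the control level (log2 fold change -0.53 ± 0.08, interval from -0.71 to -0.34). Ccng1 had the smallest p of the 10 genes and ranked 38 among the 17125 tested, with an adjusted p of 0.0645 in edgeR and 3.01e-06 in DESeq2. Without control replicate 1 it passed the threshold in edgeR (adjusted p = 0.028), in a fit that called 2.49% of tested genes lower. When all genes with at least 1 count were kept, both Ccng1 (adjusted p = 0.00923) and Cdkn1a (adjusted p = 0.0192) passed, in a fit that called 1.21% of genes lower.

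The mitochondrial death genes showed no difference larger than the spread between hearts. Bax, which permeabilises the outer mitochondrial membrane, was at 35.6, 31.9 and 40.0 CPM in control and 35.5, 39.8 and 40.4 CPM in mutant hearts. Its log2 fold change was 0.11 ± 0.10, with an interval from -0.13 to 0.34. Bbc3 encodes PUMA, a BH3-only protein that triggers BAX, and was at 7.01, 5.79 and 7.65 CPM in control and 6.42, 6.89 and 7.69 CPM in mutant hearts. The ranges of both genes overlap almost entirely. The log2 fold change of Bbc3 was 0.03 ± 0.15, with an interval from -0.30 to 0.37.

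Eda2r, a receptor of the tumour necrosis factor receptor family for ectodysplasin A2, had the lowest ratio of the members. It was at 13.7, 5.75 and 16.1 CPM in control hearts and 5.20, 6.51 and 5.74 CPM in mutant hearts. The mutant hearts were alike, whereas control replicate 2 was at the mutant level, so the groups overlapped. The log2 fold change was -1.03 ± 0.33 (interval from -1.79 to -0.28), with an adjusted p of 0.164 in edgeR and 0.0150 in DESeq2. It was -1.36 without control replicate 2 (adjusted p = 0.069 in edgeR) and -0.75 without control replicate 3 (adjusted p = 0.309 in edgeR). Eda2r lies on the X chromosome. Summed over 4 genes of the Y chromosome, control replicates 1 and 2 and mutant replicate 3 were at 198 to 240 CPM and the other 3 hearts at 0.031 CPM or less, a split that the Eda2r values did not follow. With these Y genes as a covariate the log2 fold change was -1.14 (adjusted p = 0.209 in edgeR).

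The last 3 members encode modifiers of p53 output. Phlda3, a pleckstrin homology protein that keeps AKT from the membrane, was at 38.8, 23.2 and 41.1 CPM in control and 27.5, 35.6 and 36.1 CPM in mutant hearts. All mutant values lay inside the control range, and the log2 fold change was -0.06 ± 0.21. Trp53inp1, which binds p53 and takes part in autophagy, was at 46.3, 29.5 and 35.2 CPM in control and 38.1, 36.5 and 34.0 CPM in mutant hearts, again inside the control range (log2 fold change -0.03 ± 0.15). Zmat3, a zinc finger protein that binds RNA, was at 50.7, 34.4 and 53.5 CPM in control and 42.7, 43.0 and 35.3 CPM in mutant hearts. Its log2 fold change was -0.20 ± 0.16, with an interval from -0.57 to 0.18.

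**Figure D2:**
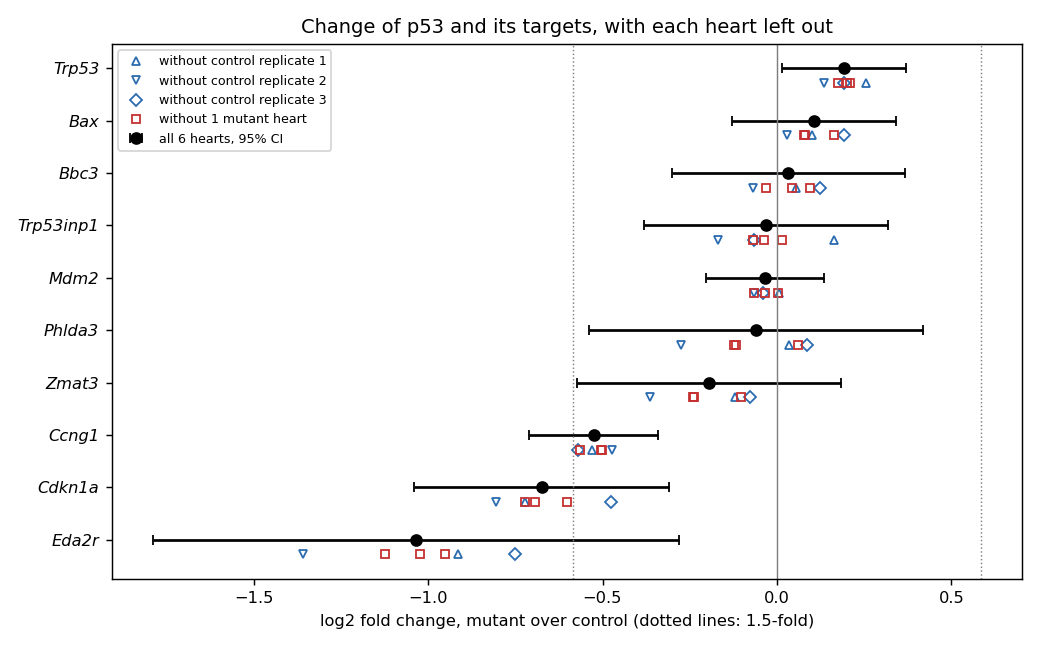
Log2 fold change of each member, mutant over control. Black points and bars give the edgeR estimate with its 95% confidence interval over 6 hearts, and open symbols the estimate with 1 heart left out. Every interval ends below the right dotted line, a 1.5-fold rise, and the open symbols cross 0 for Mdm2, Bbc3, Phlda3 and Trp53inp1.

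The intervals show which changes these data can bound. For all 10 genes the upper end lay below a 1.5-fold rise (0.58 on the log2 scale). For 7 genes the whole interval lay within 1.5-fold in both directions, and the exceptions were Cdkn1a, Ccng1 and Eda2r. The interval was wholly below 0 for 3 genes, the same 3, and wholly above 0 for 1, Trp53. These bounds apply to the average over all cells of a heart. In bulk tissue fewer cells that express a gene and less RNA per cell cannot be told apart, and a rise limited to the endothelial fraction would be diluted by the other cells.

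The targets varied more among control than among mutant hearts, as did 64.1% of the genes measured at 1 CPM or more on average. Control replicate 2 was the lowest control heart for 8 of the 9 targets (88.9%), the exception being Ccng1. It was the lowest for 50% of 40 other p53 targets and for 34.7% of all tested genes. The coefficient of variation among control hearts was 45.7% for Eda2r, 28.3% for Phlda3, 23.2% for Cdkn1a, 23.0% for Trp53inp1 and 22.3% for Zmat3. It was 13.9% for Bbc3 and 11.3% for Bax. Ccng1, at 6.64%, and Mdm2, at 4.99%, lay below the median over genes. Over the 14635 genes at 1 CPM or more, the median was 9.85% in control and 7.25% in mutant hearts. The 9 targets were between 4.48% and 14.6% among mutant hearts. Without control replicate 2, 8 of 9 targets were lower in mutant hearts and their median log2 fold change was -0.28. Without control replicate 1 it was 0.0046, with 4 of 9 lower, so the median of the targets depended on which control heart was included.

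**Figure D3:**
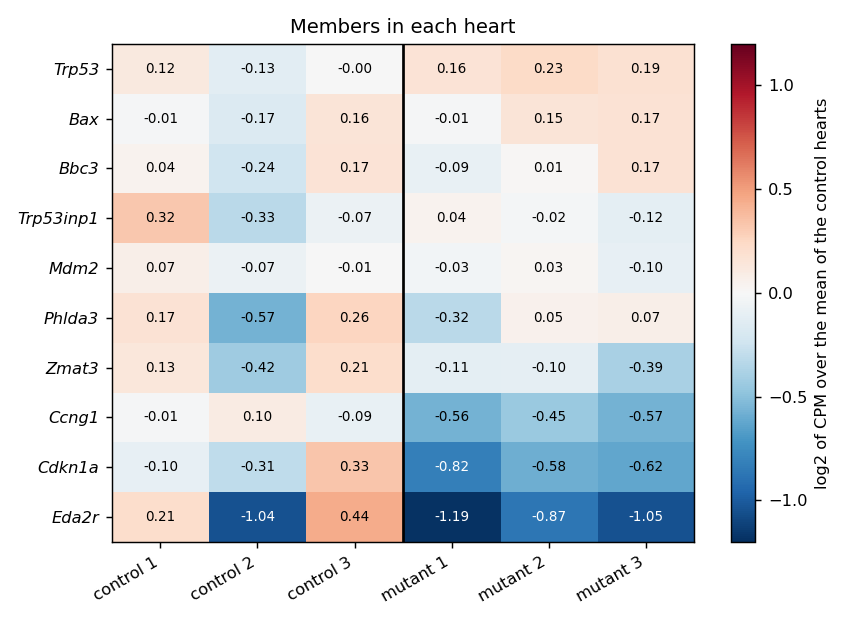
Log2 of the CPM of each member in each heart over the mean of the 3 control hearts, with red above and blue below that mean. Control replicate 2 is blue for every member but Ccng1, reaching -1.04 for Eda2r, and the mutant hearts are blue throughout for Zmat3, Ccng1, Cdkn1a and Eda2r.

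The composition of the hearts was read from marker lists. Cardiomyocyte markers, 8 genes, summed to 18887 to 23563 CPM in control and 19326 to 20249 CPM in mutant hearts, with all 8 detected, and markers of liver and lung to at most 2.01 CPM. Of the cardiomyocyte markers, 6 were lower and 2 higher, with a median log2 fold change of -0.14. The 8 erythroid markers were all lower in mutant hearts, 5 of them at an unadjusted p under 0.05, none at 0, with a summed level of 8805 to 39223 CPM in control and 5550 to 10202 CPM in mutant hearts, ranges that overlap. Endothelial markers, of which 4 of 8 were lower and none at 0, summed to 812 to 1015 CPM in control and 900 to 947 CPM in mutant hearts. No erythroid marker passed at an adjusted p under 0.05 in edgeR or DESeq2, and for 1 of the 8 the groups did not overlap. The part of erythroid RNA in the lower values of Cdkn1a, Ccng1 and Eda2r was not tested. The 8 epicardial and fibroblast markers summed to 1346 to 1847 CPM in control and 1295 to 1698 CPM in mutant hearts, with none at 0. That list held 5 higher and 3 lower markers, with a median log2 fold change of 0.04. In DESeq2, 3 of the 8 passed, all without overlap between the groups and none of them called by edgeR. They were Postn (log2 fold change -0.43 ± 0.09 in edgeR), Dcn (-0.46 ± 0.10) and the mesothelial gene Upk3b (0.57 ± 0.12). DESeq2 also called the cardiomyocyte marker Myh6 higher (0.48 ± 0.16 in edgeR) and the endothelial marker Esam lower (-0.33 ± 0.08 in edgeR). Myh6 went against the direction of most of its list. Of all genes with an adjusted p in DESeq2, 3.43% were called lower and 2.67% higher. Postn, Dcn, Upk3b, Myh6 and Esam were named after their values were seen, and the part of such differences in the values of the members was not tested. Control replicate 2 had the lowest summed level of the endothelial list (812 CPM) and of the macrophage list (50.9 CPM), and the part of these in its low target values was not tested either.

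Other p53 targets, 40 genes compiled from general knowledge, were examined beside the members. A lower mean in mutant hearts was seen for 25 and a higher mean for 15, with a median log2 fold change of -0.13. At an unadjusted p under 0.05, 6 were lower and 2 higher, and the groups did not overlap for 9 lower and 4 higher genes. Over all tested genes, 9.98% were lower and 9.48% higher at that p. The groups did not overlap for 12.8% of them in the lower and 14.3% in the higher direction. None was called by edgeR. Dglucy, an enzyme that degrades D-glutamate, was at 7.83, 5.48 and 8.92 CPM in control and 2.97, 4.28 and 3.25 CPM in mutant hearts (log2 fold change -1.09 ± 0.22, adjusted p = 0.083 in edgeR). Perp, a membrane protein of cell junctions first found as a p53 death effector, was at 126, 174 and 155 CPM in control and 99.8, 106 and 114 CPM in mutant hearts (-0.51 ± 0.12, adjusted p = 0.1). Pidd1, the scaffold that activates caspase-2, was higher, with 12.6, 10.2 and 10.96 CPM in control and 15.04, 14.6 and 14.97 CPM in mutant hearts (0.40 ± 0.11, adjusted p = 0.122). DESeq2 called these 3 and, lower, Sesn1, a sestrin of nutrient signalling that is named after its values were seen (log2 fold change -0.29). Of all genes with an adjusted p in that fit, 3.43% were called lower and 2.67% higher.

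**Figure D4:**
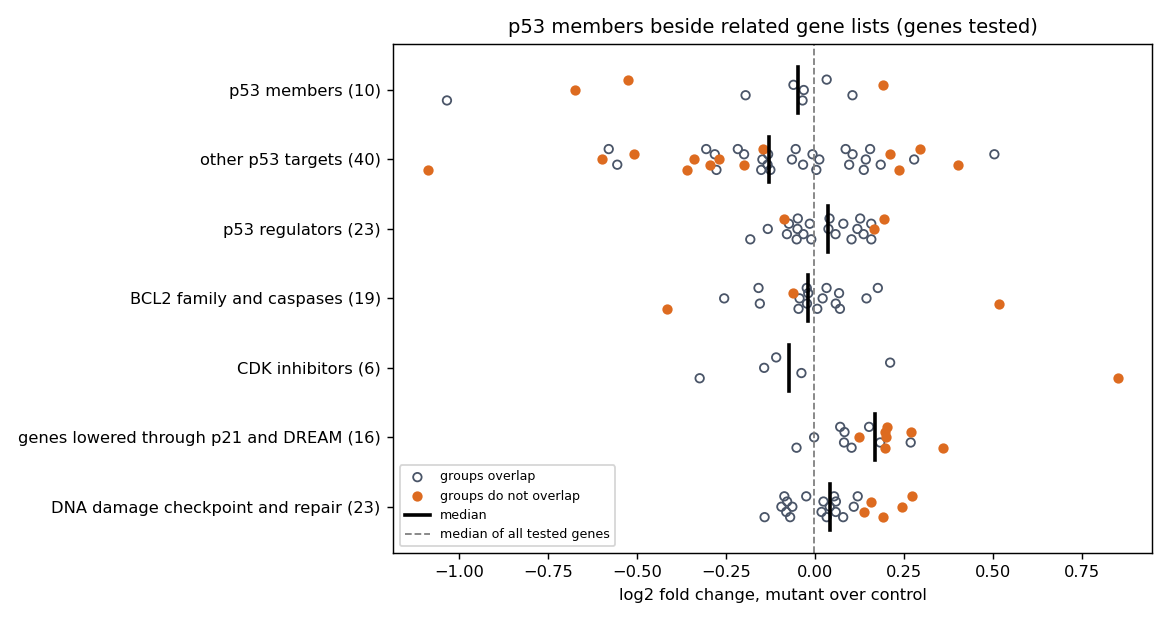
Log2 fold change, mutant over control, of each tested gene in the member list and 6 related lists, with the number tested in brackets. Filled points are genes whose groups do not overlap, black bars are list medians and the dashed line is the median of all tested genes. The other p53 targets have a median of -0.13 and the genes lowered through p21 and DREAM one of 0.17.

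Regulators of p53 were near level. Of 25 genes, 23 were tested (Cdkn2a and Trp73 had too few counts), 12 were higher and 11 lower, and the median log2 fold change was 0.04. At an unadjusted p under 0.05, 2 were higher and none lower, against 9.48% higher and 9.98% lower over all tested genes. Trp53bp1, a double-strand break repair factor that binds p53, was at 61.6, 64.4 and 64.0 CPM in control and 79.7, 67.7 and 69.6 CPM in mutant hearts (0.19 ± 0.08). Ppp1r13l, an inhibitor of p53, had a log2 fold change of 0.16 ± 0.07 and Rchy1, a ubiquitin ligase for p53, one of -0.09 ± 0.07. Trp53bp1, Ppp1r13l and Rchy1 were the genes of the list without overlap between the groups, 2 higher and 1 lower. Over all tested genes the groups did not overlap for 14.3% in the higher and 12.8% in the lower direction.

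The other death genes, 19 tested of 21 in the BCL2 and caspase list, divided into 9 higher and 10 lower with a median of -0.02. Bid, a BH3-only protein cut by caspase-8, was at 5.62, 3.85 and 4.72 CPM in control and 6.69, 6.75 and 6.94 CPM in mutant hearts (0.52 ± 0.16, adjusted p = 0.159). Cycs, cytochrome c, which also carries electrons in respiration, was at 457, 682 and 490 CPM in control and 377, 444 and 401 CPM in mutant hearts (-0.41 ± 0.15). Mcl1, an inhibitor of apoptosis, had a log2 fold change of only -0.06 ± 0.06 although its groups did not overlap. Bid, Cycs and Mcl1 were the genes of the list without overlap, 1 higher and 2 lower. Over all tested genes this held for 14.3% in the higher and 12.8% in the lower direction. Among the 23 DNA damage checkpoint and repair genes, 15 were higher and 8 lower with a median of 0.04. At an unadjusted p under 0.05, 4 were higher and none lower, against 9.48% and 9.98% of all tested genes. Those with the smallest p were Clspn, a mediator of CHK1 activation (0.24 ± 0.07), H2afx, the histone phosphorylated at breaks (0.27 ± 0.08), and Parp1, which senses strand breaks (0.16 ± 0.06). The groups did not overlap for 5 higher and no lower repair genes, against 14.3% and 12.8% of all tested genes. The paper reports higher expression of many cell cycle genes in mutant hearts. Whether the repair genes share in that was not tested.

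Genes that p53 is known to lower through p21 and the DREAM repressor complex were mostly higher. Of 16 cell cycle genes, 14 were higher and 2 lower in mutant hearts, with a median log2 fold change of 0.17, and 6 were higher at an unadjusted p under 0.05. The groups did not overlap for 7, all higher. Over all tested genes, 8509 of 17125 were higher, 9.48% were higher at that p and 14.3% were higher without overlap. Plk1, a mitotic kinase, was at 57.5, 51.4 and 54.9 CPM in control and 65.5, 70.4 and 74.4 CPM in mutant hearts (0.36 ± 0.08, adjusted p = 0.0906 in edgeR). Mybl2 (0.27 ± 0.07) and Foxm1 (0.20 ± 0.06), transcription factors of the G2 programme, were also higher in every mutant heart. Plk1 was the only gene of the list called by DESeq2, which called 2.67% of all genes with an adjusted p higher. These genes are also targets of other cell cycle regulators, and the list was compiled with the cell cycle differences of these hearts known, so its direction is not independent evidence.

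The other CDK inhibitors were mixed. Of 7 genes 6 were tested, 2 higher and 4 lower, with a median of -0.07. Cdkn1c encodes p57, an imprinted inhibitor of the same family as p21, and was at 378, 263 and 274 CPM in control and 520, 534 and 597 CPM in mutant hearts. Its log2 fold change of 0.85 ± 0.14 (adjusted p = 0.0763 in edgeR) was opposite in sign to that of Cdkn1a. DESeq2 called Cdkn1c, with an adjusted p of 8.92e-07, and no other gene of the list. Its calls took in 2.67% (higher) and 3.43% (lower) of all genes given an adjusted p. Before adjustment, the edgeR p of 1 list gene in each direction was below 0.05. The shares of all tested genes below that cut were 9.48% in the higher and 9.98% in the lower direction.

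The genes whose pattern over the 6 hearts was most like that of Cdkn1a, by Pearson correlation of log2(CPM + 1) among 14635 genes, were Lyn (0.997), Bbs9 (0.996) and Lzts1 (0.993). For the mean of the 9 targets they were Eda2r (0.991), itself a member, Slc44a1 (0.986) and Unc93b1 (0.982). Slc44a1 was at 63.7, 53.1 and 64.1 CPM in control and 52.9, 54.1 and 53.8 CPM in mutant hearts, so it too had control replicate 2 at the mutant level. With so many genes compared over so few hearts, values this high are a description of pattern and no more.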

How the data were processed

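Whole hearts were sequenced as 76 bp paired-end mRNA libraries (NEBNext Ultra RNA kit). The authors mapped reads to GRCm38 with STAR 2.4.2a and GENCODE vM6 and deposited unnormalized counts per gene from summarizeOverlaps; strand and overlap settings are not given in the sources used here. Their table of DESeq2 results, with mean signal, log2 fold changes and p-values, was deposited too and supplied gene symbols only. Columns were matched to samples by title.

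The count analysis used edgeR 4.0.16 under R 4.3.3 (TMM, filterByExpr with minimum count 10 and total 15, quasi-likelihood F test, genotype as the only term, Benjamini-Hochberg over all tested genes, threshold 0.05) and, as an alternative, DESeq2 1.42.0 on all genes. The standard error is the log2 fold change over the square root of F. Steps were tested on simulated counts. Every pair of libraries differed by at least 20.6 in chi-square per degree of freedom, so each heart counted as 1 replicate. Exon lengths and positions came from GENCODE vM21, promoter windows from RefSeq.

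The members, gene lists and tests were chosen with earlier results of these data known. Genes named beyond the members were Ino80, up to 3 genes per list with the smallest p among those without overlap, and the 3 most similar in pattern. Alternatives were RLE factors, DESeq2, 2 other filters, thinning, a replicate block, a Y gene covariate, a threshold of 0.1, leaving out each heart and, added after seeing the data, DESeq2 on the filterByExpr genes.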

Additional observations from a re-analysis of the deposited data

How the results depend on the processing

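The main limits are the 3 hearts per group, control hearts that differ in several members (replicate 2 lowest for Eda2r, Phlda3 and Zmat3, replicate 3 highest for Cdkn1a, replicate 1 highest for Trp53inp1), and the dilution of an endothelial effect by the rest of the heart. Counting depth was not limiting for any member. Of 140 member values under alternatives, 122 kept their sign and side of the threshold, 9 kept their sign and passed the threshold, 0 lost it and 9 changed sign, all 9 on leaving out a heart and none of them with an adjusted p under 0.05.

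In counts of genes at an adjusted p under 0.05, edgeR called 0, while an unadjusted p under 0.05 was reached by 1624 genes in the higher and 1709 in the lower direction. DESeq2 called 443 higher and 570 lower, among them 3 members, all lower, and 3 higher and 3 lower genes of the other p53 lists. On the genes kept by filterByExpr, an alternative chosen after seeing the data, it called 445 higher and 549 lower, again with 3 members lower and 3 higher and 3 lower of the other lists. With all genes of at least 1 count edgeR called 262 higher and 341 lower, with 2 members lower and 2 higher and 2 lower of the other lists. At an adjusted p under 0.1 it gave 195 and 214, with 1 member lower and 2 higher and 1 lower of the other lists. Leaving out each heart gave 0 to 320 higher and 0 to 431 lower, 0 to 1 members lower, and 0 to 3 higher and 0 to 1 lower genes of the other lists; the highest counts came without control replicate 1. In chi-square per degree of freedom of the counts, that heart was nearer to mutant replicates 2 and 3 (22.9 and 28.3) than to control replicates 2 and 3 (37.7 and 72.7). Its value against mutant replicate 1, the deepest library, was 43.9, above that against control replicate 2. This measure grows with depth, so the values are only roughly comparable. The erythroid sum of control replicate 1, 8805 CPM, lay within the mutant range. RLE factors, a mean of at least 1 CPM, thinning and the Y gene covariate left all these counts at 0.

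Same-numbered hearts had correlations of 0.022, -0.087 and -0.09 in their deviations from the group mean, and differently numbered hearts ranged from -0.094 to 0.153. The numbers thus showed no pairing, but so few hearts cannot decide whether some shared a litter. The paper reports the use of litter mates as controls, and the litters of these hearts are not given in the sources used here. With the replicate number as a block edgeR called 1 gene higher and 13 lower, none of them a member.

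Sign changes were small. Mdm2 was at 0.0046 without control replicate 1 and 0.0019 without mutant replicate 3, and ranged from -0.066 over the fits without a heart. Bbc3 was at -0.070 without control replicate 2 and -0.03 without mutant replicate 3, up to 0.12. Phlda3 was at 0.035, 0.086 and 0.060 without control replicates 1 and 3 and mutant replicate 1, down to -0.28. Trp53inp1 was at 0.16 without control replicate 1 and 0.02 without mutant replicate 3, down to -0.17. The cause of these shifts was not tested.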
